A study of Mus musculus with 8 samples.

Results

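The genes described are those of the enzymes that hydroxylate collagen and cross-link it outside the cell, in mouse embryonic fibroblasts with and without Hif-p4h-1, kept in hypoxia or normoxia. Members were taken by gene name: the prolyl 4-hydroxylase subunits P4ha1, P4ha2, P4ha3 and P4hb, the lysyl hydroxylases Plod1, Plod2 and Plod3, and the lysyl oxidases Lox, Loxl1 and Loxl2. A probe set is a group of short probes read together on the array, in most cases for transcripts of 1 gene. Of 45037 probe sets, 15 belonged to 9 of the 10 genes. Both Loxl2 probe sets were also assigned to a second gene, Gm21451, so their values are given apart and enter no count.

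The 8 arrays held total RNA from fibroblasts of C57BL6/J mouse embryos taken at E14.5. The 4 groups were Hif-p4h-1 knockout cells (-/-) in hypoxia, knockout cells in normoxia, wild-type cells (+/+) in hypoxia and wild-type cells in normoxia, with 2 arrays each. One array of each group carried the mark "2nd" in its name. These 4 arrays are called the second set and the others the first set, and the value of the first set comes first wherever a pair is given. The labels give neither the oxygen levels and hours of exposure nor the deleted part of the gene and the number of embryos behind a culture. Nor do they say whether the 2 sets were separate cultures, so the error behind each p-value may be technical.

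Collagen chains are hydroxylated in the endoplasmic reticulum before they fold into a triple helix. Prolyl 4-hydroxylase, made of alpha subunits (P4ha1, P4ha2 or P4ha3) and the protein disulfide isomerase P4hb, makes the hydroxyproline that keeps the helix stable at body temperature. The lysyl hydroxylases, encoded by the Plod genes, modify lysines of the chains, and Plod2 acts on those of the telopeptides at the chain ends. After secretion, the copper enzymes of the lysyl oxidase family oxidise lysines and hydroxylysines, which then form the cross-links of collagen and elastin. The collagen hydroxylases need oxygen, iron, ascorbate and 2-oxoglutarate, as do the HIF prolyl hydroxylases, of which Hif-p4h-1 (gene Egln2) is one. Those enzymes mark HIF alpha subunits for destruction when oxygen is present, and several genes of the collagen enzymes are known HIF targets.

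Values are log2 expression after RMA, which corrects and normalises the arrays and sums the probes of a set, so a difference of 1 is a doubling. They rank samples within 1 probe set and not genes against each other. The array medians lay between 5.01 and 5.12. All 10 fibroblast markers were measured, with a mean log2 level of 11.04 to 11.14 on the knockout arrays and 11.18 to 11.40 on the wild-type arrays. Of these, Pdgfra was called lower in knockout cells over both conditions (-0.72 ± 0.07, limma adjusted p = 0.0221). Lum ran from 5.46 to 9.69 over the arrays. The targeted gene was not silent on its probe set: Egln2 read 8.66 and 8.85 in knockout cells in hypoxia and 8.0 and 8.34 in knockout cells in normoxia, against 8.95 and 9.13 in wild-type cells in hypoxia and 8.84 and 9.07 in wild-type cells in normoxia. The knockout reading was below its wild-type partner in both sets and both conditions, but the difference in normoxia (-0.79 ± 0.09, estimate ± SE) had an adjusted p of 0.135. Whether the probes lie in the deleted part was not tested.

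**Figure D1:**
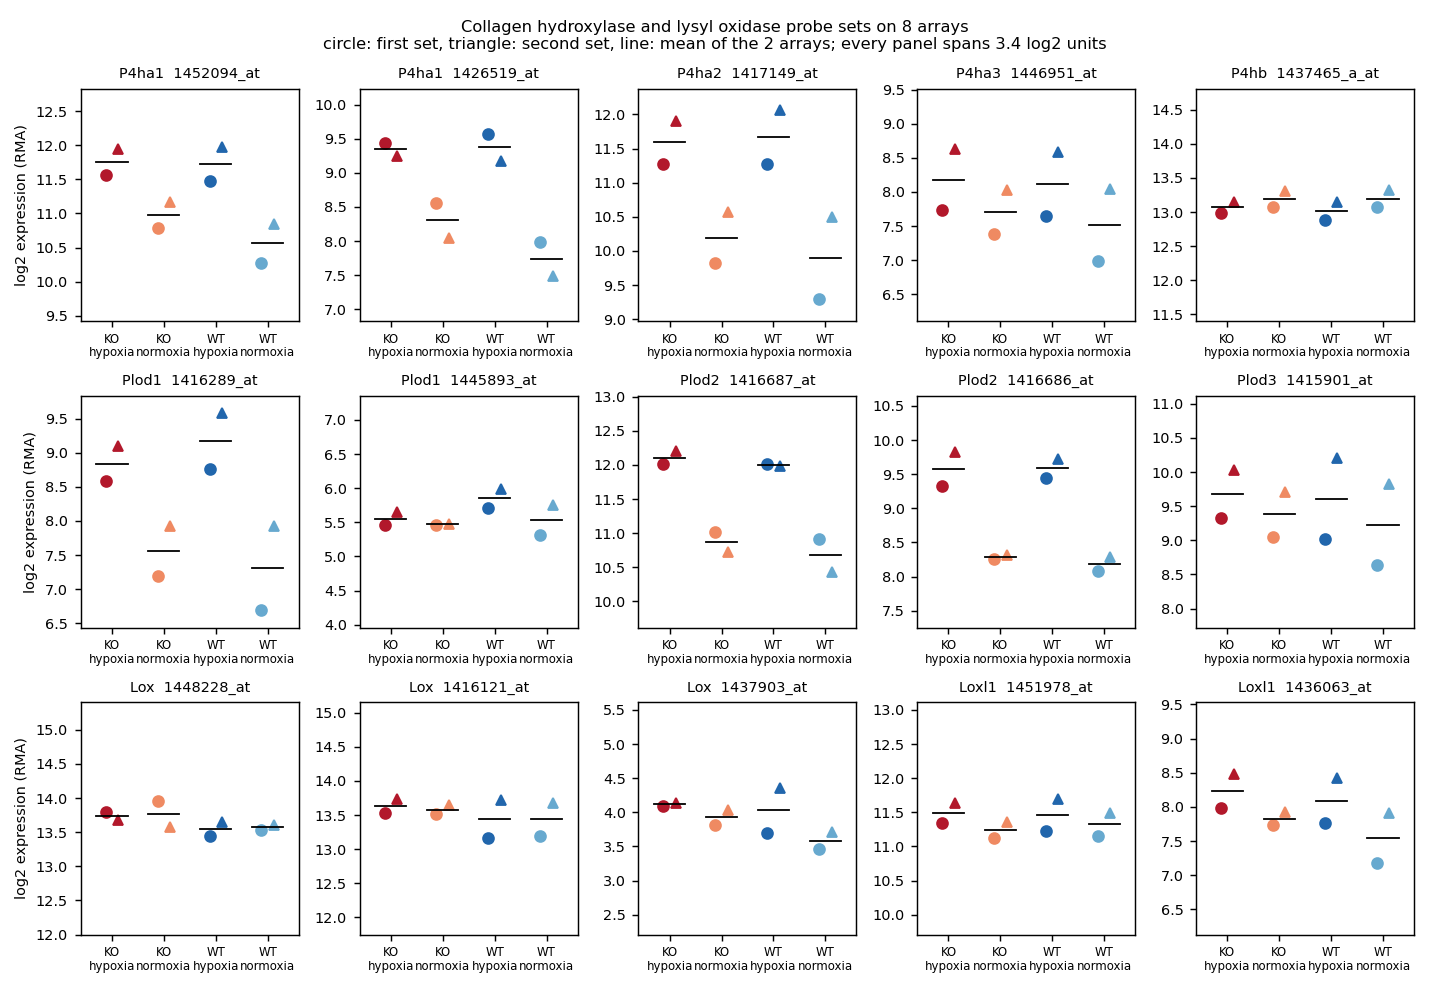
Log2 expression of the 15 probe sets on the 8 arrays, 1 panel per probe set, with knockout groups left of wild-type groups and hypoxia left of normoxia. Circles are the first set, triangles the second set and lines the mean of the 2 arrays. P4ha1, P4ha2, Plod1 1416289_at and both Plod2 probe sets stand higher in hypoxia in each genotype, whereas P4hb, Plod3 and Lox 1448228_at and 1416121_at overlap between conditions.

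Hypoxia raised P4ha1, P4ha2, Plod1 and Plod2 in knockout cells and the same genes with P4ha3 in wild-type cells, and no member fell. By limma with Benjamini-Hochberg adjustment over all probe sets (a call is an adjusted p under 0.05), 6 of the 15 member probe sets rose in knockout cells, where 2.18% of all probe sets rose and 2.49% fell. In wild-type cells 7 of the 15 rose, where 3.81% of all probe sets rose and 3.47% fell. The median difference of the members, hypoxia minus normoxia, was 0.41 in knockout cells, against 0.02 over all probe sets, and 0.55 in wild-type cells, against -0.02 over all probe sets. The probe sets that rose belonged to 4 of 9 genes in knockout cells and 5 of 9 in wild-type cells. With the set as a random block, the knockout calls of P4ha1 (adjusted p = 0.0981 and 0.0598), P4ha2 (0.0957) and Plod1 (0.126) were lost and both of Plod2 held. In wild-type cells the call of P4ha3 was lost (0.344). A limma fit of the 4 arrays compared lost both knockout calls of Plod2 (adjusted p = 0.0887 and 0.0868). P4ha2 was the only member that kept its knockout call there.

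Promoter sequence of P4ha1, P4ha2 and P4hb is shown first. HIF binds DNA at sites with the core ACGTG or GCGTG. P4ha1 and P4ha2 rose in both genotypes and P4hb was not called. Binding of HIF to these sites was not tested. RefSeq promoter windows (GRCm38.p6) were used for 6 of the 9 genes, and the 250 bases before each start were searched on both strands. Plod2, which rose, and Lox and Loxl1, which were not called, were not searched. ACGTG, or CACGT where the site lies on the other strand, is in capitals. The letters of the other core differ in the first base only, so the cores cannot occupy the same position on a strand. For P4ha1 the last 30 bases before the start are printed, which hold the match, chr10:59323266-59323295 on the plus strand. The window of P4ha2 is chr11:54100674-54100923 on the plus strand, and that of P4hb is chr11:120573254-120573503 on the minus strand.
P4ha1: ggtgtgacagagcgCACGTagcgagggctg
P4ha2: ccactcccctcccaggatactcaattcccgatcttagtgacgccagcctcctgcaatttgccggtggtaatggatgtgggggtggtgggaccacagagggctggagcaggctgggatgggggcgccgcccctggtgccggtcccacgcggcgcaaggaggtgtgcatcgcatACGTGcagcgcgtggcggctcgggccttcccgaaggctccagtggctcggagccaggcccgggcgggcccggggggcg
P4hb: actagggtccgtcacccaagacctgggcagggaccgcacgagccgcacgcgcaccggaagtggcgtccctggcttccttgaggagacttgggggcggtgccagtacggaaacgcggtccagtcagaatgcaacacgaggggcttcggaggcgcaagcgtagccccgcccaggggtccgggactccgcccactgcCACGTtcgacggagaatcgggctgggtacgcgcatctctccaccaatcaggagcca
Matches to ACGTG on either strand were placed by their leftmost base in the direction printed. They began 16 bases before the start in P4ha1, 78 bases in P4ha2, 56 bases in P4hb and 54 bases in Plod3, which is 4 of the 6 windows. Over 32851 mouse promoters of the same length, 16.6% held ACGTG. This count kept a chromosome that the search of the members passed over by rule. GCGTG was found in 5 of the 6 windows, those of P4ha1, P4ha2, P4hb, Plod1 and Plod3, against 28.2% of all promoters. The P4ha3 window held neither core, and that of Plod1 held GCGTG alone. P4hb and Plod3 held ACGTG and were not called for hypoxia in either genotype, so within these 6 windows the letters did not separate the members that rose. The windows were rich in G and C, between 55.6% in Plod3 and 70.0% in P4ha2, and a match is a description of letters, not of binding.

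P4ha1, the alpha subunit of the type I enzyme, rose on both of its probe sets. On 1452094_at it read 11.57 and 11.94 in knockout cells in hypoxia, against 10.79 and 11.16 in knockout cells in normoxia. In wild-type cells the readings were 11.47 and 11.97 in hypoxia, against 10.28 and 10.85 in normoxia. All 4 hypoxia arrays lay above all 4 normoxia arrays. The difference was 0.78 ± 0.07 in knockout cells (1.72-fold, limma adjusted p = 0.00239) and 1.16 ± 0.07 in wild-type cells (2.23-fold, adjusted p = 0.000224). It was 0.78 in each set of the knockout cells, and 1.19 and 1.12 in the 2 sets of the wild-type cells.

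The second P4ha1 probe set, 1426519_at, also rose in both genotypes. Its readings were 9.44 and 9.25 in knockout cells in hypoxia, against 8.56 and 8.05 in knockout cells in normoxia, and 9.57 and 9.18 in wild-type cells in hypoxia, against 7.99 and 7.49 in wild-type cells in normoxia. The groups did not overlap between conditions, and the knockout arrays in normoxia lay above the wild-type arrays in normoxia. Hypoxia added 1.04 ± 0.11 in knockout cells (adjusted p = 0.00334) and 1.64 ± 0.11 in wild-type cells (adjusted p = 0.000247). Without the second knockout array in hypoxia, the knockout difference was 0.90 with an adjusted p of 0.0569.

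P4ha2, the alpha subunit of the type II enzyme, had the largest rise of any prolyl 4-hydroxylase probe set in both genotypes. Probe set 1417149_at read 11.27 and 11.91 in knockout cells in hypoxia, against 9.82 and 10.57 in knockout cells in normoxia. In wild-type cells it read 11.27 and 12.06 in hypoxia, against 9.29 and 10.50 in normoxia. The lowest hypoxia reading, 11.27 in both genotypes, was above the highest normoxia reading, 10.57. The difference was 1.40 ± 0.12 in knockout cells (2.63-fold, limma adjusted p = 0.00176) and 1.77 ± 0.12 in wild-type cells (3.41-fold, adjusted p = 0.000317). The 2 sets stood apart by 0.85 ± 0.09, so the readings within a group differ more than those of P4ha1, while the hypoxia difference was 1.45 and 1.34 in the knockout sets and 1.98 and 1.56 in the wild-type sets.

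P4ha3, the third alpha subunit, rose in wild-type cells, with a smaller estimate than P4ha1 or P4ha2. Its readings on 1446951_at were 7.73 and 8.63 in knockout cells in hypoxia, against 7.38 and 8.03 in knockout cells in normoxia. In wild-type cells they were 7.65 and 8.59 in hypoxia, against 6.99 and 8.05 in normoxia. The second set lay above the first in every group, and the groups overlapped because of it. The difference within a set was 0.35 and 0.60 in knockout cells and 0.66 and 0.54 in wild-type cells. In the fit this gave 0.48 ± 0.12 in knockout cells (adjusted p = 0.0708) and 0.60 ± 0.12 in wild-type cells (adjusted p = 0.0247). The wild-type call was lost when any 1 of the 4 wild-type arrays was left out, with adjusted p-values of 0.0784 to 0.196.

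P4hb, the beta subunit, which also works alone as protein disulfide isomerase, did not follow the alpha subunits. Its probe set 1437465_a_at read 12.99 and 13.15 in knockout cells in hypoxia, against 13.08 and 13.31 in knockout cells in normoxia. It read 12.89 and 13.15 in wild-type cells in hypoxia, against 13.07 and 13.32 in wild-type cells in normoxia. All 4 within-set differences were negative and small. The estimate was -0.13 ± 0.05 in knockout cells (adjusted p = 0.23) and -0.18 ± 0.05 in wild-type cells (adjusted p = 0.0823). The 95% interval in wild-type cells, -0.29 to -0.06, lies below 0, where those of P4ha1 and P4ha2 lie above it.

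Among the lysyl hydroxylases, Plod1 and Plod2 rose and Plod3 was not called. No Plod promoter is printed other than that of Plod1, the member with the highest rise in wild-type cells, chr4:147936777-147937026 on the minus strand of GRCm38.p6. It holds no ACGTG, and so no capitals.
Plod1: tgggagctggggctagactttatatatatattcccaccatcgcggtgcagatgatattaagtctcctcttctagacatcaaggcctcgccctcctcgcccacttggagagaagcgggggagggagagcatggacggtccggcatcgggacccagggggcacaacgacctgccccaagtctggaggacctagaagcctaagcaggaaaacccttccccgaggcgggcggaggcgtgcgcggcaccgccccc
On 1416289_at Plod1 read 8.58 and 9.10 in knockout cells in hypoxia, against 7.20 and 7.93 in knockout cells in normoxia. In wild-type cells it read 8.76 and 9.58 in hypoxia, against 6.69 and 7.92 in normoxia. All 4 hypoxia arrays were above all 4 normoxia arrays. The rise was 1.28 ± 0.16 in knockout cells (2.42-fold, limma adjusted p = 0.00644) and 1.87 ± 0.16 in wild-type cells (3.64-fold, adjusted p = 0.000892). Without the first knockout array in normoxia, the knockout difference was 1.34 with an adjusted p of 0.0503.

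The second Plod1 probe set, 1445893_at, did not show this. Its readings were 5.46 and 5.65 in knockout cells in hypoxia, against 5.46 and 5.48 in knockout cells in normoxia. They were 5.71 and 5.99 in wild-type cells in hypoxia, against 5.32 and 5.75 in wild-type cells in normoxia. The groups overlapped, and hypoxia minus normoxia was 0.09 (adjusted p = 0.84) in knockout cells and 0.32 ± 0.16 (adjusted p = 0.301) in wild-type cells. The call for Plod1 therefore rests on 1 of its 2 probe sets.

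Plod2, the lysyl hydroxylase of the collagen telopeptides, rose on both probe sets in the 2 genotypes. On 1416687_at it read 12.01 and 12.20 in knockout cells in hypoxia, against 11.02 and 10.73 in knockout cells in normoxia. In wild-type cells it read 12.02 and 11.98 in hypoxia, against 10.92 and 10.43 in normoxia. The rise was 1.23 ± 0.14 in knockout cells (2.35-fold, limma adjusted p = 0.00472) and 1.33 ± 0.14 in wild-type cells (2.51-fold, adjusted p = 0.00223). Without the second knockout array in hypoxia the knockout difference was 1.00 with an adjusted p of 0.0517.

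On its other probe set, 1416686_at, Plod2 read 9.33 and 9.82 in knockout cells in hypoxia, against 8.26 and 8.32 in knockout cells in normoxia. The wild-type readings were 9.45 and 9.72 in hypoxia, against 8.08 and 8.28 in normoxia. Conditions did not overlap on either probe set. The rise was 1.29 ± 0.11 in knockout cells (adjusted p = 0.00176) and 1.41 ± 0.11 in wild-type cells (adjusted p = 0.00078). This probe set, P4ha2 and the P4ha1 probe set 1452094_at were called in both genotypes whichever of the 8 arrays was left out.

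Plod3, which also glycosylates hydroxylysine, read 9.33 and 10.03 in knockout cells in hypoxia, against 9.05 and 9.71 in knockout cells in normoxia, on 1415901_at. In wild-type cells it read 9.02 and 10.20 in hypoxia, against 8.64 and 9.82 in normoxia. Each hypoxia reading was above the normoxia reading of its own set, but the sets stood 0.93 ± 0.10 apart and the groups overlapped. The difference was 0.30 ± 0.15 (adjusted p = 0.309) in knockout cells and 0.38 ± 0.15 in wild-type cells (adjusted p = 0.173, 95% interval 0.05 to 0.71). The interval leaves room for a rise smaller than that of Plod1 or Plod2.

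Of the lysyl oxidases, Lox and Loxl1 were not called for hypoxia in either genotype. Lox, the founding member, read 13.80 and 13.68 in knockout cells in hypoxia, against 13.95 and 13.58 in knockout cells in normoxia, on 1448228_at. In wild-type cells it read 13.45 and 13.65 in hypoxia, against 13.53 and 13.61 in normoxia. The conditions overlapped, and the estimates were -0.03 (95% interval -0.29 to 0.24) in knockout cells and -0.02 (-0.28 to 0.24) in wild-type cells. A second probe set, 1416121_at, gave 0.06 (-0.17 to 0.28) in knockout cells and 0.00 (-0.22 to 0.22) in wild-type cells. Its readings were 13.53 and 13.74 in knockout cells in hypoxia, against 13.51 and 13.65 in knockout cells in normoxia, and 13.16 and 13.72 in wild-type cells in hypoxia, against 13.20 and 13.68 in wild-type cells in normoxia. No upper bound of these intervals exceeds 0.28. Both probe sets stood near the top of the range, at the 99.6 and 99.5 percentiles of level. Whether a rise can be read in full at such levels was not tested.

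The third Lox probe set, 1437903_at, read between 3.46 and 4.36 on the 8 arrays, with a hypoxia difference of 0.19 (adjusted p = 0.652) in knockout cells and 0.45 ± 0.18 (adjusted p = 0.189) in wild-type cells.

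Loxl1, which acts on elastin, gave 2 unequal answers. On 1451978_at it read 11.34 and 11.63 in knockout cells in hypoxia, against 11.12 and 11.36 in knockout cells in normoxia, and 11.23 and 11.70 in wild-type cells in hypoxia, against 11.16 and 11.49 in wild-type cells in normoxia. The hypoxia difference was 0.25 ± 0.07 (adjusted p = 0.106) in knockout cells and 0.14 ± 0.07 (adjusted p = 0.329) in wild-type cells. On 1436063_at it read 7.99 and 8.48 in knockout cells in hypoxia, against 7.73 and 7.92 in knockout cells in normoxia, and 7.76 and 8.42 in wild-type cells in hypoxia, against 7.18 and 7.91 in wild-type cells in normoxia. That difference was 0.41 ± 0.14 (adjusted p = 0.154) in knockout cells and 0.55 ± 0.14 (adjusted p = 0.0559) in wild-type cells. The wild-type value passed the threshold when arrays were centred on their median (adjusted p = 0.041) or dim probe sets were left out (0.0488).

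The 2 probe sets assigned to Loxl2 and to Gm21451 cannot be credited to either gene. On 1452436_at the readings were 11.52 and 12.18 in knockout cells in hypoxia, against 10.71 and 11.79 in knockout cells in normoxia, and 11.54 and 12.17 in wild-type cells in hypoxia, against 10.91 and 11.77 in wild-type cells in normoxia. This was a rise of 0.60 ± 0.11 in knockout cells (limma adjusted p = 0.0213) and of 0.52 ± 0.11 in wild-type cells (adjusted p = 0.0248). It lost its call in 5 of the 8 fits without 1 array in knockout cells and in 3 of the 8 in wild-type cells. The other, 1431004_at, gave 0.65 (adjusted p = 0.172) in knockout cells and 0.49 (adjusted p = 0.287) in wild-type cells.

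**Figure D2:**
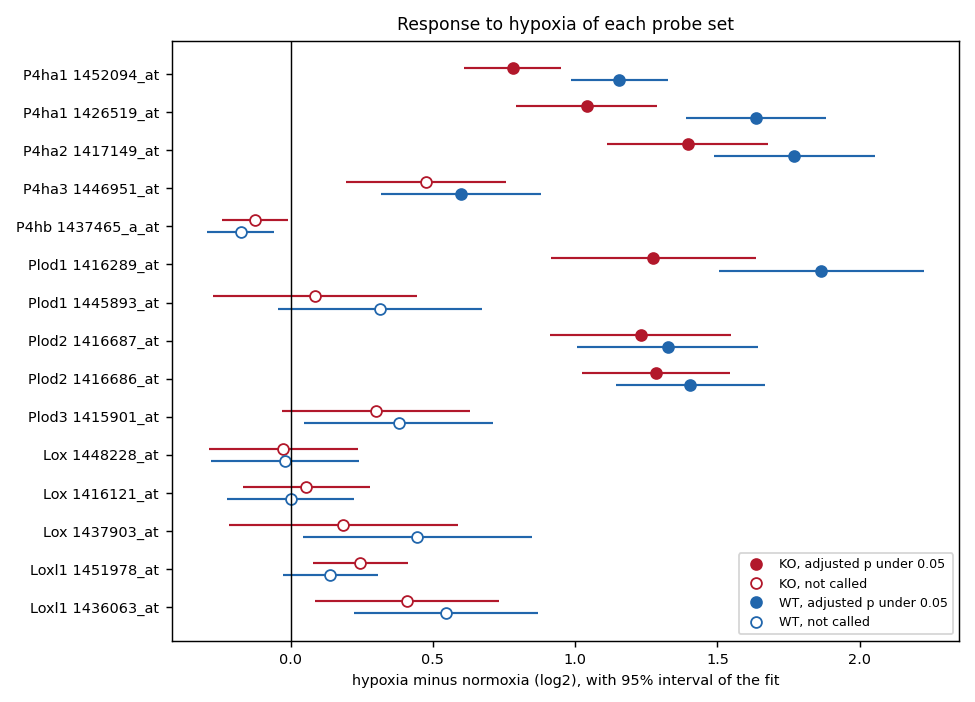
Hypoxia minus normoxia (log2) for each member probe set in knockout (red) and wild-type cells (blue), with the 95% interval of the fit. Filled points are called (adjusted p under 0.05). P4ha1, P4ha2, Plod2 and 1 of 2 Plod1 probe sets lie between 0.78 and 1.87, P4ha3 is called in wild-type cells alone, and Lox and Loxl1 are open points.

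Whether the hypoxia response differs with genotype was tested as the response in knockout cells minus that in wild-type cells. No member probe set was called, and none of 45037 was (0%). By limma 3 of 15 members had an unadjusted p under 0.05, against 1279 of all probe sets. They were P4ha1 1452094_at (-0.38 ± 0.11), P4ha1 1426519_at (-0.60 ± 0.15) and Plod1 1416289_at (-0.59 ± 0.22), each with an adjusted p of 0.998. The response was smaller in knockout cells in both sets for these 3 probe sets and for P4ha2 (-0.53 and -0.22). The same held for Plod1 1445893_at (-0.39 and -0.07), Plod2 1416687_at (-0.11 and -0.08) and Plod3 (-0.10 and -0.06). Over the members, 12 of 15 differences were negative, with a median of -0.13, against 0.02 over all probe sets. For Plod2 the differences were -0.10 (95% interval -0.54 to 0.35) and -0.12 (-0.49 to 0.25), and both intervals span 0. The P4ha2 interval (-0.78 to 0.03) spans 0 as well.

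Knockout and wild-type cells were then compared at each oxygen level. In normoxia no member probe set was called, where 0.00666% of all probe sets were. By limma 3 of 15 members had an unadjusted p under 0.05, against 2085 of all probe sets. P4ha1 was higher in knockout cells in both sets, by 0.51 and 0.31 on 1452094_at (0.41 ± 0.07, 95% interval 0.24 to 0.58, adjusted p = 0.494) and by 0.57 and 0.56 on 1426519_at (0.57 ± 0.11, interval 0.32 to 0.81, adjusted p = 0.6). P4ha2 differed by 0.53 and 0.07 in the 2 sets (adjusted p = 0.97).

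For several other members the genotypes stood apart in the first set and not in the second. In normoxia, knockout minus wild type was 0.51 in the first set but 0.01 in the second for Plod1 1416289_at, 0.42 and -0.03 for Lox 1448228_at, 0.31 and -0.03 for Lox 1416121_at, 0.41 and -0.11 for Plod3 and 0.55 and 0.01 for Loxl1 1436063_at. Over the 9 genes, each by the probe set of highest mean, the median was 0.41 in the first set but -0.01 in the other. Lox 1437903_at, which read low on all arrays, was higher in knockout cells by 0.36 and 0.33 in the 2 sets (limma adjusted p = 0.97). P4hb was 0.00 ± 0.05, with an interval of -0.12 to 0.12. No member was therefore shown to depend on genotype in normoxia.

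In hypoxia no member probe set was called, as none of 45037 was (0%). By limma 0 of 15 members had an unadjusted p under 0.05, against 2085 of all probe sets. P4ha1 differed by 0.04 (95% interval -0.13 to 0.20) and -0.03 (-0.28 to 0.22), and P4ha2 by -0.08 (-0.36 to 0.21). Plod1 was lower in knockout cells in both sets on 1416289_at (-0.18 and -0.48) and on 1445893_at (-0.25 and -0.34), with an adjusted p of 0.987 for each. Averaged over both conditions, again 0 of 15 members were called and 4 had an unadjusted p under 0.05, where 0.04% of all probe sets were called and 2905 had such a p. These comparisons use the same arrays as the hypoxia comparisons and are not independent of them.

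**Figure D3:**
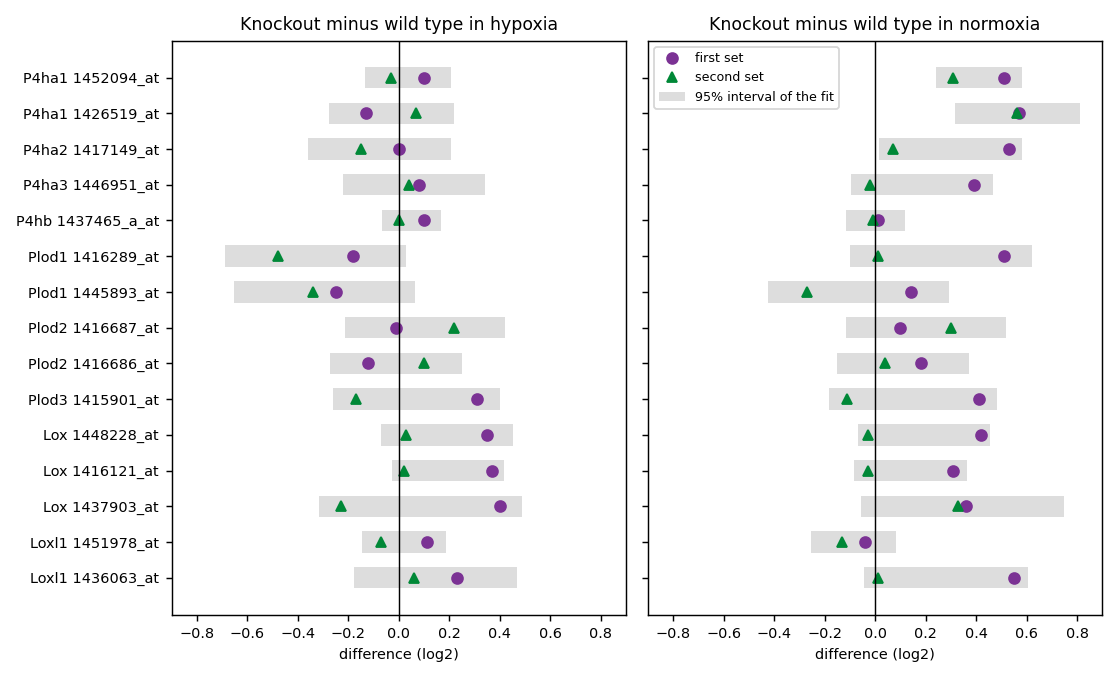
Knockout minus wild type (log2) for each member probe set in hypoxia (left) and normoxia (right). Circles are the first set, triangles the second set and grey bars the 95% interval of the fit. In normoxia both points lie at 0.31 or above for the P4ha1 probe sets and Lox 1437903_at. For Plod1 1416289_at, Plod3 and Lox 1448228_at and 1416121_at the first set lies above 0 and the second within 0.11 of it.

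Other features moved with genotype on the same arrays. The 3 probe sets called in normoxia were those of Lyz2, Lyz1 and Pf4, each lower in knockout cells. Summed over the 7 macrophage and leukocyte markers, all measured, log2 levels were 39.4 to 43.8 on the knockout arrays in hypoxia and 40.2 to 44.0 on the knockout arrays in normoxia, against 44.5 to 53.7 and 45.6 to 56.2 on the wild-type arrays in hypoxia and in normoxia. The 5 skeletal muscle markers summed to 23.9 to 26.5 on the knockout arrays, against 25.1 to 38.7 on the wild-type arrays. No marker of either list can be at 0 on this scale. Within sets, the median muscle marker differed between knockout and wild-type cells in normoxia by -3.62 in the first set but 0.25 in the other, and the median macrophage marker by -1.72 and -0.84. Their part in the genotype values above was not tested, and in bulk samples fewer cells of a type and less RNA per cell cannot be told apart. Between hypoxia and normoxia the median macrophage marker differed by -0.22 in knockout cells and by -0.50 in wild-type cells. The 3' minus 5' difference of the Gapdh control probes was higher in hypoxia by 0.04 and 0.27 in knockout cells and by 0.13 and 0.33 in wild-type cells. For the Actb control probes it was higher in hypoxia by 0.10 and 0.16 in knockout cells and by 0.17 and 0.16 in wild-type cells. The part of these shifts in the hypoxia values was not tested.

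The 2 sets of arrays differed more than the genotypes did. The second set was higher than the first for 10 member probe sets and lower for 1, where 13.4% of all probe sets were higher and 13.9% lower. Plod3 (0.93), P4ha3 (0.89), P4ha2 (0.85) and Plod1 1416289_at (0.83) had the largest differences. The P4ha1 probe sets went opposite ways, 0.45 ± 0.05 on 1452094_at (limma adjusted p = 0.000435) and -0.40 ± 0.08 on 1426519_at (adjusted p = 0.00529). For a single gene the set difference thus depended on the probes. Since each group has 1 array in each set, the set was fitted as a term, and without that term none of the members was called for hypoxia in either genotype.

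Likeness over the 8 arrays was taken between genes, each by its probe set of highest mean. The gene nearest to P4ha1 1452094_at was Slc41a1 (Pearson r = 0.995), followed by Gbe1 (0.990), Aldoa (0.988), 2510039O18Rik (0.987) and P4ha2 (0.985). Gbe1 is the glycogen branching enzyme and Aldoa a glycolytic aldolase. The 8 points share the set and the oxygen condition, and P4ha2 is the 1 member among the 5. For Lox 1448228_at the nearest were Gtsf1l (0.957), Mid1 (0.943), Ttc9 (0.930), Ccdc62 (0.929) and Mapk13 (0.926), none of them a member. Lox read between 13.45 and 13.95 on the 8 arrays, so this order rests on small differences.

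Around the members, most HIF targets rose, as did Egln1 and Egln3 of the HIF hydroxylases, and most genes of the collagen route were not called. Each gene is given by its probe set of highest mean, and over 18193 genes 2.49% rose and 2.7% fell in knockout cells, and 4.09% rose and 4.6% fell in wild-type cells. Of 19 measured HIF targets outside the collagen route, 17 rose in knockout cells (median difference 1.02) and 19 in wild-type cells (1.37). They included Bnip3, a mitophagy receptor (3.05 in knockout cells and 3.95 in wild-type cells), Pdk1, which restrains pyruvate dehydrogenase (2.90 and 3.80), and Fam162a (1.91 and 2.12). Without the second knockout array in hypoxia, 11 of 19 rose in knockout cells. Of the 5 HIF hydroxylase genes, Egln1 (1.16 and 1.23) and Egln3 (3.07 and 3.42) rose in both genotypes, Egln2 rose in knockout cells (0.59, adjusted p = 0.0148), and Hif1an and P4htm were not called. The Egln2 call was lost without either knockout array in hypoxia or the first in normoxia (adjusted p = 0.0983, 0.143 and 0.15).

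The enzymes that act next to the members showed few calls. None of the 8 genes of the prolyl 3-hydroxylase complex and the collagen glycosyltransferases was called in either genotype by limma, with medians of 0.20 in knockout cells and 0.10 in wild-type cells. Crtap gave 0.23 in knockout cells and 0.19 in wild-type cells, P3h3 0.30 and 0.21, and Ppib 0.08 and 0.12. Of 11 measured collagen chaperones and export factors, Fkbp14, a collagen-binding prolyl isomerase, fell in knockout cells (-0.50 ± 0.11, adjusted p = 0.0446) and in wild-type cells (-0.62 ± 0.11, adjusted p = 0.0152), and Fkbp9 fell in wild-type cells (-0.32, adjusted p = 0.0404). Fkbp14 lost its wild-type call without 1 of 3 wild-type arrays, with adjusted p-values up to 0.126. Its knockout call and the Fkbp9 call each held in 2 of the 8 fits without 1 array. None of 6 propeptide proteinases and enhancers was called. Pcolce2, an enhancer of procollagen processing, was nearest (0.36 in knockout cells and 0.38 in wild-type cells, adjusted p = 0.0757 and 0.05), and Bmp1 was -0.34 and -0.43.

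The collagens themselves were not called for hypoxia. Of 10 fibrillar collagen and elastin genes, 9 had a negative difference in each genotype, with medians of -0.23 in knockout cells and -0.24 in wild-type cells. Col5a3 was at -0.50 and -0.79, Col5a2 at -0.29 and -0.34, and Col5a1 at -0.35 and -0.36, with adjusted p-values of 0.0595 to 0.239 over both genotypes. In wild-type cells 4 of the 10 genes were called without the second wild-type array in hypoxia, and in knockout cells 2 without either wild-type array in hypoxia. Col2a1, a cartilage collagen, was the 1 gene of the list that differed with genotype, higher in knockout cells by 0.74 ± 0.08 over both conditions (limma adjusted p = 0.0295), where 0.011% of genes were higher.

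Among 6 measured relatives and partners of the lysyl oxidases, Tnxb rose in wild-type cells (0.76 ± 0.16, adjusted p = 0.0265, against 0.59 and 0.0786 in knockout cells). The call was lost without any 1 of the 4 wild-type arrays. Loxl3 gave -0.10 in knockout cells and -0.28 in wild-type cells, Fmod -0.43 and -0.93, and neither was called. Loxl4 was 0.54 ± 0.23 higher in knockout than in wild-type cells in normoxia, with an adjusted p of 0.97.

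Of the 10 genes that supply ascorbate, iron or copper, Slc2a1, which carries glucose and dehydroascorbate, rose by 1.495 in knockout cells (limma adjusted p = 4.51e-05) and by 1.88 in wild-type cells (6.7e-06). In wild-type cells Tfrc, the transferrin receptor (0.73), and Atp7a, which loads copper into the secretory route (0.53), also rose, and the copper importer Slc31a1 fell by 0.50. In knockout cells these 3 were at 0.51, 0.13 and -0.49 and were not called. The wild-type count of 4 was 1 without the first wild-type array in hypoxia or either wild-type array in normoxia, and 2 without the second wild-type array or either knockout array in hypoxia.

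Most protein disulfide isomerases and chaperones of the endoplasmic reticulum fell in wild-type cells, with a sign opposite to that of the alpha subunits. Of 11 genes, 5 fell and 1 rose in knockout cells (median -0.23), and 7 fell and 1 rose in wild-type cells (median -0.30). The riser was Ero1a, which reoxidises protein disulfide isomerase, with 0.89 ± 0.08 in knockout cells (adjusted p = 0.00176) and 1.36 ± 0.08 in wild-type cells (adjusted p = 0.000127). Pdia6 fell by 0.51 in knockout cells and by 0.66 in wild-type cells, and the lectin chaperone Calr fell by 0.56 and by 0.55. P4hb, itself a disulfide isomerase, had the sign of this list and not that of its alpha subunits. The knockout count of 6 was 1 to 3 without any 1 of the 4 knockout arrays, and the wild-type count of 8 was 2 to 4 without any 1 of the 4 wild-type arrays.

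Outside the marker lists, none of the listed genes was called between genotypes in normoxia. Bnip3 was higher in knockout than in wild-type cells by 0.83 ± 0.08 (0.90 and 0.76 in the 2 sets, limma adjusted p = 0.0614), and its adjusted p was 0.0273 when genes were tested by 1 probe set each at or above the 25th percentile. Pdk1 gave 0.76 ± 0.10 (0.63 and 0.89) and Col2a1 0.81 ± 0.11 (0.87 and 0.74), each with an adjusted p of 0.144. The median over the 19 HIF targets was 0.26, with 15 positive. Slc40a1, the iron exporter, gave -0.84 ± 0.23 (adjusted p = 0.901) and Col3a1 -0.26 ± 0.05 (adjusted p = 0.712). Ero1a differed by 0.15, Slc2a1 by 0.26 and Tll1 by 0.39, with adjusted p-values of 0.891 to 0.97. P4ha1 was also higher in knockout cells in both sets, by less than Bnip3 and Pdk1. Those 2 genes were named because they had the smallest p of their list in this comparison. Whether the differences share a cause was not tested.

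**Figure D4:**
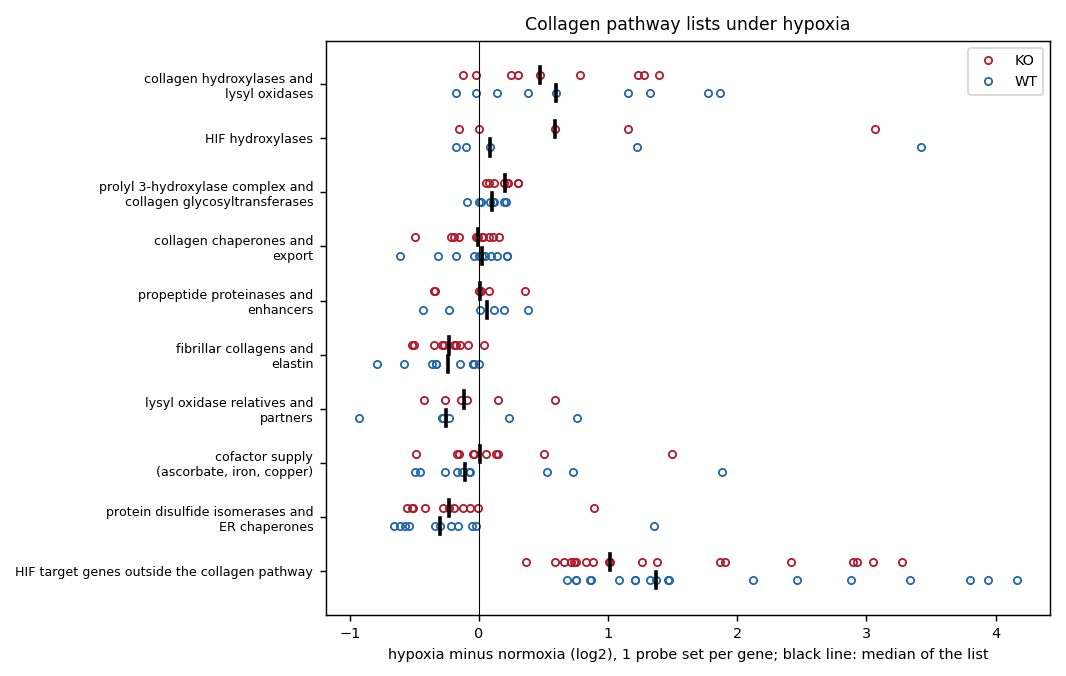
Hypoxia minus normoxia (log2) of each gene, by its probe set of highest mean, in knockout (red) and wild-type cells (blue), 1 row pair per list, with the median as a black line. The medians of the members, 0.48 in knockout cells and 0.60 in wild-type cells, lie between those of the HIF targets, 1.02 and 1.37, and those of the fibrillar collagens, -0.23 and -0.24.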

How the data were processed

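Total RNA of embryonic fibroblasts was read on 8 Affymetrix arrays. The deposited log2 values were made by the authors with RMA, per the submitters' processing notes, with no version named, and run from 2.09 to 14.71. Whether both sets were normalised in 1 run is not stated. No further normalisation or filter was applied. Of 45101 probe sets 64 controls were left out, 34945 had 1 gene symbol in the platform annotation, 932 several and 9160 none, and 34741 were matched to RefSeq by gene ID.

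limma 3.58.1 (R 4.3.3) was fitted to all 45037 probe sets with terms for group and set, a mean-variance trend and 3 residual degrees of freedom. In 7 contrasts p-values were adjusted by Benjamini-Hochberg over all probe sets, at a threshold of 0.05. Testing all probe sets was preferred to 1 per gene, which with a filter on level was an alternative. SE and 95% intervals come from this fit. The test was tested on simulated data. Arrays have no read depth, and their number limits the precision.

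The same set mark pairs the arrays: deviations from group means correlated between groups by 0.535 to 0.728 over all probe sets, above 0.1 for every pair, so the set is a block. Members and lists were chosen with earlier results of these data known. From each list, up to 3 genes with the smallest p for hypoxia in wild-type cells and up to 2 for genotype in normoxia were named. Added were the 5 genes most correlated with P4ha1 and with Lox, each gene by its probe set of highest mean. Other genes named were chosen after their values were seen. Alternatives were another treatment of the set, dim probe sets left out, 1 probe set per gene at or above the 25th percentile of level, median centring, quantile normalisation, no trend, 4 arrays alone and each array left out in turn. Promoter windows came from RefSeq, GRCm38.p6.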

Additional observations from a re-analysis of the deposited data

How the results depend on the processing

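No result changed direction past the threshold under any alternative, and quantile normalisation left every count named here within 1.5 times. Median centring and quantile normalisation moved the median of all probe sets by at most 0.07. The block of the set decided the counts. Without the replicate block, 0 member probe sets were called for hypoxia in knockout cells, in place of 6, and 0 in wild-type cells, in place of 7. Over all probe sets 14 were called in knockout cells in place of 2104, 24 in wild-type cells in place of 3282, 0 for genotype in normoxia in place of 3, and 0 for genotype over both conditions in place of 18. With the set as a random replicate block, the counts over all probe sets were 148 for hypoxia in knockout cells, 375 in wild-type cells, and 0 for genotype in normoxia and over both conditions, and 2 member probe sets were called in knockout cells, both of Plod2. Without a trend they were 420, 1261, 0 and 3. In a fit of the 4 arrays compared they were 24, 148 and 0 for genotype in normoxia, with 1 member probe set called in knockout cells, that of P4ha2. With 1 probe set per gene at or above the 25th percentile of level, which changes both the probe sets and the filter, they were 1380 for hypoxia in knockout cells, 5 for genotype in normoxia, 4 for genotype in hypoxia, 35 over both conditions and 6293 between the sets, with 7 member probe sets called between the sets. Leaving out 1 array gave 4 to 6 member probe sets in knockout cells and 6 to 8 in wild-type cells for hypoxia, and 10 to 11 between the sets. Over all probe sets it gave 101 to 2450 for hypoxia in knockout cells (506 and 101 without the first or second knockout array in hypoxia, 213, 1138, 1148 and 1151 without the first or second array of knockout and then of wild-type cells in normoxia), 353 to 2728 in wild-type cells (650 without the first wild-type array in hypoxia, 353 and 673 without the first or second in normoxia), 0 to 2 for genotype in normoxia, 1 to 13 over both conditions and 8338 to 10867 between the sets. For the interaction 0 were called in every fit. With 1 probe set per gene at or above that percentile, Egln2 (adjusted p = 0.0489) and Bnip3 (0.0273) were called for genotype in normoxia. The cause of these changes was not tested. The 2 arrays per group limit every p-value.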
